A study of Homo sapiens with 12 samples.

Results

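Heat shock proteins and their partner chaperones are described here as 41 genes, chosen by name as heat shock factors, heat shock proteins, co-chaperones and chaperonins. All 41 were matched by symbol among the 61552 genes of the deposited count table, and all 41 passed the filter on low counts that left 20304 genes. Messenger RNA came from human neuroblastoma cells cultured overnight with ML210, a covalent inhibitor of the lipid peroxide-reducing enzyme GPX4, or without it. The 4 groups held 3 libraries each: SK-N-BE(2) with ML210, SK-N-BE(2) control, SK-N-AS with ML210 and SK-N-AS control. All 12 libraries carry the genotype label WT, and no source used here gives the ML210 dose or what the controls received. The design calls SK-N-BE(2) MYCN-amplified and SK-N-AS non-amplified, and because each status has 1 line, an effect of MYCN status cannot be told apart from one of the line. A batch label from 1 to 3 matched the replicate number in each group. It is the sole sign of separate cultures, so p-values measure the spread between these libraries, which may be technical.

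Library totals lay between 54047293 and 83481963 counts, and the members took 1.63 to 2.14% of them. The MYCN level contradicted the labelled line in each of the 12 libraries. It stood at 0.0607, 0.161 and 0.24 CPM, the counts scaled to a common library total, in SK-N-BE(2) with ML210 and 0.195, 0.221 and 0.0837 CPM in its controls, but at 3908, 3933 and 3723 CPM in SK-N-AS with ML210 and 3458, 3522 and 3693 CPM in its controls. The lines are therefore called BE(2)-labelled and AS-labelled throughout, and a direction between them is a direction between labels that MYCN contradicts. TH, an enzyme of catecholamine synthesis and a neuroblastoma marker, was at or below 0.607 CPM in the BE(2)-labelled libraries and at or above 242 CPM in the AS-labelled ones. GPX4 mRNA was between 215 and 282 CPM in every library. In these bulk libraries, fewer cells of a type and less RNA per cell cannot be told apart.

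Chaperones bind unfolded or partly folded proteins, keep them from aggregating and help them fold or be degraded. HSP70 proteins do this in cycles of ATP use that DNAJ proteins (HSP40) start and BAG proteins end, HSP90 finishes clients such as kinases and steroid receptors, and the ring-shaped chaperonins fold proteins such as actin and tubulin. When unfolded proteins accumulate, the transcription factor HSF1 is released from chaperones and binds heat shock elements, repeats of the triplet GAA in alternating orientation, at genes such as HSPA1A and HSPB1. In this field the pathway is also known because HSP90 keeps ALK, a kinase mutated in some neuroblastomas, folded, and because HSPB1 has been described as a brake on ferroptosis in other human cancer cell lines.

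Heat shock element letters near the gene starts are shown for some of the members that the results turn on. Windows of 250 bases before to 50 bases after the start were available from RefSeq (GRCh38.p14) for 36 of the 41 members, and were searched for GAANNTTC and TTCNNGAA (2 units) and for GAANNTTCNNGAA and TTCNNGAANNTTC (3 units). Each 2-unit motif reads the same on both strands, the 3-unit motifs are each other's reverse complement, and a 3-unit match contains 2-unit matches. At least 1 window held 2 units in 20 of the 36 members (55.6%), against 16.2% of 27305 genes with a window. Matches to 3 units were present in 7 of the 36 (19.4%), against 0.608% of all genes. The 7 were HSPA8, DNAJA1, DNAJB6, CHORDC1, HSP90AA1, HSP90AB1 and HSPD1. DNAJB2 and BAG3 had windows without a 2-unit match, and DNAJB4 had a 2-unit match that is not shown. A match describes letters in this window, not a bound site. The first 5 stretches belong to HSPB1 and to 4 other members with higher means with ML210 under the BE(2) label. The next 4 hold at least 3 units, at abundant genes or at the member with the largest difference between the controls. That member is CHORDC1, where the capitals join overlapping 3-unit matches. Capitals mark the matching letters, and each stretch is written 5′ to 3′ on the gene's strand.
HSPB1, chr7:76302461-76302528, plus strand: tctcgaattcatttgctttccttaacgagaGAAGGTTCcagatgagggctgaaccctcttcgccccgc
HSPB8, chr12:119178832-119178861, plus strand: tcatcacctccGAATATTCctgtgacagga
HSPA1A, chr6:31815418-31815463, plus strand: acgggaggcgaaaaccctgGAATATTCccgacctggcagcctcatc
HSPA1B, chr6:31827603-31827670, plus strand: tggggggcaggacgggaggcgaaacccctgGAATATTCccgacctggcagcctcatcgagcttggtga
BAG2, chr6:57172191-57172220, plus strand: tcgaccgatagGAACCTTCgcgtgggggga
HSP90AA1, chr14:102087112-102087140, minus strand: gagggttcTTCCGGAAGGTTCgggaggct
HSPA8, chr11:123062171-123062199, minus strand: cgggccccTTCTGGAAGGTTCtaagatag
HSP90AB1, chr6:44247812-44247862, plus strand: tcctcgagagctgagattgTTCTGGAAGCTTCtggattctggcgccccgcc
CHORDC1, chr11:90223084-90223112, minus strand: ccgGAAAATTCGCGAAGGTTCCTGAAacg

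With ML210, the BE(2)-labelled libraries held more HSPB1 mRNA than their controls, and it was the single member of 41 to pass the test. HSPB8, HSPA1A, HSPA1B, DNAJB4, DNAJB2, BAG2, BAG3 and HSP90AA1 had higher means with ML210 without passing it, and their levels were unequal among the 3 ML210 libraries. By edgeR's quasi-likelihood test with Benjamini-Hochberg adjustment over all genes, 1 member was called higher, where 0.818% of all tested genes were called higher, and 0 were called lower, where 0.557% of all genes were. At an unadjusted p under 0.05, 10 members were higher and 1 was lower, against backgrounds of 7.12% and 6.33%. The median log2 fold change was 0.05 over the members and 0.001 over all genes tested. With the batch as a replicate block, 7 members were called higher: HSPB1 and HSPB8, DNAJB2 and DNAJB4, BAG2 and BAG3, and HSP90AA1. In that fit 3.42% of all genes were called higher. DESeq2's Wald test called 6 higher, namely HSPB1, HSPB8, HSPA1A, DNAJB2, DNAJB4 and BAG2, and 0 lower, where 2.35% and 1.92% of the genes it tested were. Without ML210 replicate 3, edgeR called those 7 of the block with HSPA1A and HSPA1B, 9 in all, as higher and FKBP5 as lower, where 2.64% and 3.26% of all genes were. Without ML210 replicate 1 it called HSPB1 alone, where 0.205% of all genes were called higher. It called 0 higher without ML210 replicate 2, control replicate 1 or control replicate 3, where 0.114%, 0.18% and 0.124% of all genes were.

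The heat shock factors did not pass the test. HSF1, which switches on the heat shock genes, had 153, 169.7 and 173 CPM in the ML210 libraries, against 163, 155 and 160.5 CPM in the controls of the BE(2) label. Its log2 fold change was 0.05, with a 95% interval of -0.08 to 0.18. HSF2, a related factor that can pair with HSF1, had 14.4, 15.8 and 16.5 CPM with ML210 and 16.4, 15.6 and 14.9 CPM in the controls. For both factors the groups overlapped.

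Among the HSP70 genes, the stress-inducible pair differed most between libraries. HSPA1A had 516, 139 and 67.8 CPM in ML210 replicates 1, 2 and 3, against 58.4, 68.1 and 66.5 CPM in the controls. HSPA1B, whose protein differs from that of HSPA1A in few residues, had 261, 67 and 41.4 CPM with ML210 and 38.8, 38.1 and 38.5 CPM in the controls. Replicate 1 stood far above all other libraries for both genes, replicate 2 stood clear of the controls, and replicate 3 lay inside the control range for HSPA1A and just above it for HSPA1B. The fitted log2 fold changes were 1.91 (SE 0.613, adjusted p = 0.199, quasi-likelihood test) and 1.68 (SE 0.573, adjusted p = 0.227), neither of them called. Without ML210 replicate 1 they were 0.67 and 0.48 (adjusted p = 0.401 and 0.243, edgeR), and without replicate 3 both were called, at 2.32 and 2.07 (adjusted p = 0.0249 and 0.0404, edgeR). The reading of single genes is limited here, because 71.3% of the 50-base stretches of HSPA1A transcripts also occur in HSPA1B. Summed over both genes, the levels were 777, 206 and 109 CPM with ML210, against 97.1, 106 and 105 CPM in the controls, and the log2 fold change of the sum was 1.82 (SE 0.596, adjusted p = 0.205, edgeR).

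HSPA8, the constitutive HSP70 and the most abundant of its family, had 2377, 1846 and 1566 CPM with ML210, against 1706, 1639 and 1502 CPM in the controls of the BE(2) label. Replicates 1 and 2 lay above the controls and replicate 3 among them, and the gene was not called (log2 fold change 0.26, adjusted p = 0.39, edgeR). HSPH1, an HSP110 protein that exchanges nucleotide on HSP70, repeated the pattern of a single high library, with 420.5, 303 and 304 CPM with ML210 and 312, 293 and 304 CPM in the controls. HSPA4, HSPA4L, HSPA14 and the mitochondrial HSPA9 had log2 fold changes between -0.06 and 0.12, none of them called.

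In the DNAJ family, DNAJB2 and DNAJB4 had all 3 ML210 libraries above all 3 controls. DNAJB4, a cytosolic DNAJ protein of the same subtype as DNAJB1, had 26.8, 15.4 and 13.9 CPM with ML210 and 12.4, 12.4 and 11.3 CPM in the controls (log2 fold change 0.64, SE 0.188, adjusted p = 0.123, edgeR). DNAJB2, which delivers ubiquitinated clients to the proteasome, had 44.1, 32.8 and 30.8 CPM with ML210 and 27, 26.6 and 26.8 CPM in the controls (log2 fold change 0.42, SE 0.109, adjusted p = 0.0746, edgeR). In both genes the first library was the highest and the groups did not overlap. With the replicate block the log2 fold changes were 0.58 for DNAJB4 (adjusted p = 0.0334, edgeR) and 0.40 for DNAJB2 (adjusted p = 0.0191, edgeR), both called. DNAJB1, the partner of HSP70 in the heat shock response, overlapped its controls, with 195, 144 and 133 CPM with ML210 and 154, 153 and 143 CPM in the controls. The log2 fold changes of DNAJA1, DNAJA2 and DNAJB6 lay between -0.03 and 0.01.

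The BAG proteins release nucleotide and client from HSP70. BAG2, which inhibits the HSP70-bound ubiquitin ligase STUB1, had 93.1, 69.1 and 61.5 CPM with ML210 and 56.1, 51.5 and 50.8 CPM in the controls (log2 fold change 0.50, SE 0.135, adjusted p = 0.0973, edgeR). BAG3, which works with HSPB8 to hand clients to autophagy, had 165, 126 and 105 CPM with ML210 and 108, 103 and 93.1 CPM in the controls (log2 fold change 0.38, SE 0.124, adjusted p = 0.177, edgeR). For BAG2 the groups did not overlap, while ML210 replicate 3 of BAG3 lay inside the control range. Both were called with the replicate block, at 0.48 for BAG2 (adjusted p = 0.00441, edgeR) and 0.36 for BAG3 (adjusted p = 0.0131, edgeR). A 44.2% share of BAG2's exonic bases is overlapped by genes of the opposite strand, and the sources used here do not state whether counting used strand. BAG1, an exchange factor with links to the proteasome, was not called (log2 fold change 0.09, 95% interval -0.06 to 0.23).

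Of the HSP90 genes, the inducible HSP90AA1 had 3250, 2289 and 2082 CPM with ML210 and 2050, 1924 and 1926 CPM in the controls of the BE(2) label (log2 fold change 0.37, SE 0.125, adjusted p = 0.194, edgeR). All 3 ML210 libraries were above the controls, with replicate 3 by a small margin. With the replicate block it was called, at 0.34 (adjusted p = 0.0456, edgeR), and without ML210 replicate 1 its log2 fold change was 0.14 (adjusted p = 0.507, edgeR). The constitutive HSP90AB1 had 2911, 2802 and 2662 CPM with ML210 and 2752, 2606 and 2525 CPM in the controls, with overlap. STIP1, which bridges HSP70 and HSP90, had 398, 375 and 363 CPM with ML210 and 339, 346 and 333 CPM in the controls, a small difference without overlap (log2 fold change 0.16, adjusted p = 0.177, edgeR). FKBP5, an HSP90 co-chaperone that lowers glucocorticoid receptor affinity, was the one member lower at an unadjusted p under 0.05, with 46.3, 46.6 and 53.2 CPM with ML210 and 57.1, 51.6 and 57 CPM in the controls. It was not called (log2 fold change -0.18, adjusted p = 0.186, edgeR) unless ML210 replicate 3 was left out (-0.27, adjusted p = 0.0145, edgeR). FKBP4, AHSA1, PTGES3, CDC37 and CHORDC1, the other HSP90 partners, had log2 fold changes from -0.01 to 0.14 and were not called.

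The small heat shock proteins hold unfolded proteins without ATP. HSPB1 had 1015, 848 and 720.4 CPM with ML210, against 589, 606 and 515 CPM in the controls of the BE(2) label. All 3 ML210 libraries were above all 3 controls, and each exceeded the control of its own batch, with same-batch log2 ratios of 0.78, 0.48 and 0.48. The log2 fold change was 0.59 (SE 0.102, 95% interval 0.36 to 0.83, adjusted p = 0.0168, edgeR). It was 0.45 without ML210 replicate 1 (adjusted p = 0.0432, edgeR). The call was lost without ML210 replicate 2, control replicate 1 or control replicate 3 (adjusted p = 0.0639, 0.0566 and 0.0675, edgeR), and in a fit of the 6 BE(2)-labelled libraries alone (adjusted p = 0.0933, edgeR).

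HSPB8, the partner of BAG3 in chaperone-assisted autophagy, had the largest fitted change of the members. It had 36.1, 17.1 and 3.73 CPM in ML210 replicates 1, 2 and 3, against 2.29, 2.03 and 1.58 CPM in the controls, from 3704 reads in the ML210 libraries and 401 in the controls. The groups did not overlap, but the ML210 libraries spread over a 9.68-fold range. Each was higher than its own batch control, by 15.8, 8.42 and 2.36-fold. The log2 fold change of 3.27 (SE 0.663) was just short of a call, at an adjusted p of 0.0515 by edgeR. It was called with the replicate block (2.85, adjusted p = 0.0427, edgeR) and without ML210 replicate 3 (3.74, adjusted p = 4.29e-05, edgeR). CRYAB, the alpha-B crystallin, was near the detection limit, with 60 reads in the ML210 libraries and 18 in the controls, and was not called (adjusted p = 0.421, edgeR). It did not pass the filter in fits of the AS-labelled libraries alone or of the controls alone, where 40 members were tested. It entered the test through the BE(2)-labelled ML210 libraries, where its level was highest, so its direction there is not evidence of a response.

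No chaperonin gene was called under the BE(2) label. The mitochondrial HSPD1 and its lid HSPE1 had log2 fold changes of -0.02 and 0.05, with 95% intervals of -0.16 to 0.12 and -0.15 to 0.26. HSPD1 had 921, 819 and 820.1 CPM with ML210 and 904, 846 and 846 CPM in the controls, with overlap. The 8 subunits of the cytosolic chaperonin TRiC had a median log2 fold change of -0.03 and a range from -0.06 to 0.05, and none was called in either direction. CCT3, its most abundant subunit per length, had 691, 695 and 671 CPM with ML210 and 653, 697 and 652 CPM in the controls.

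**Figure D1:**
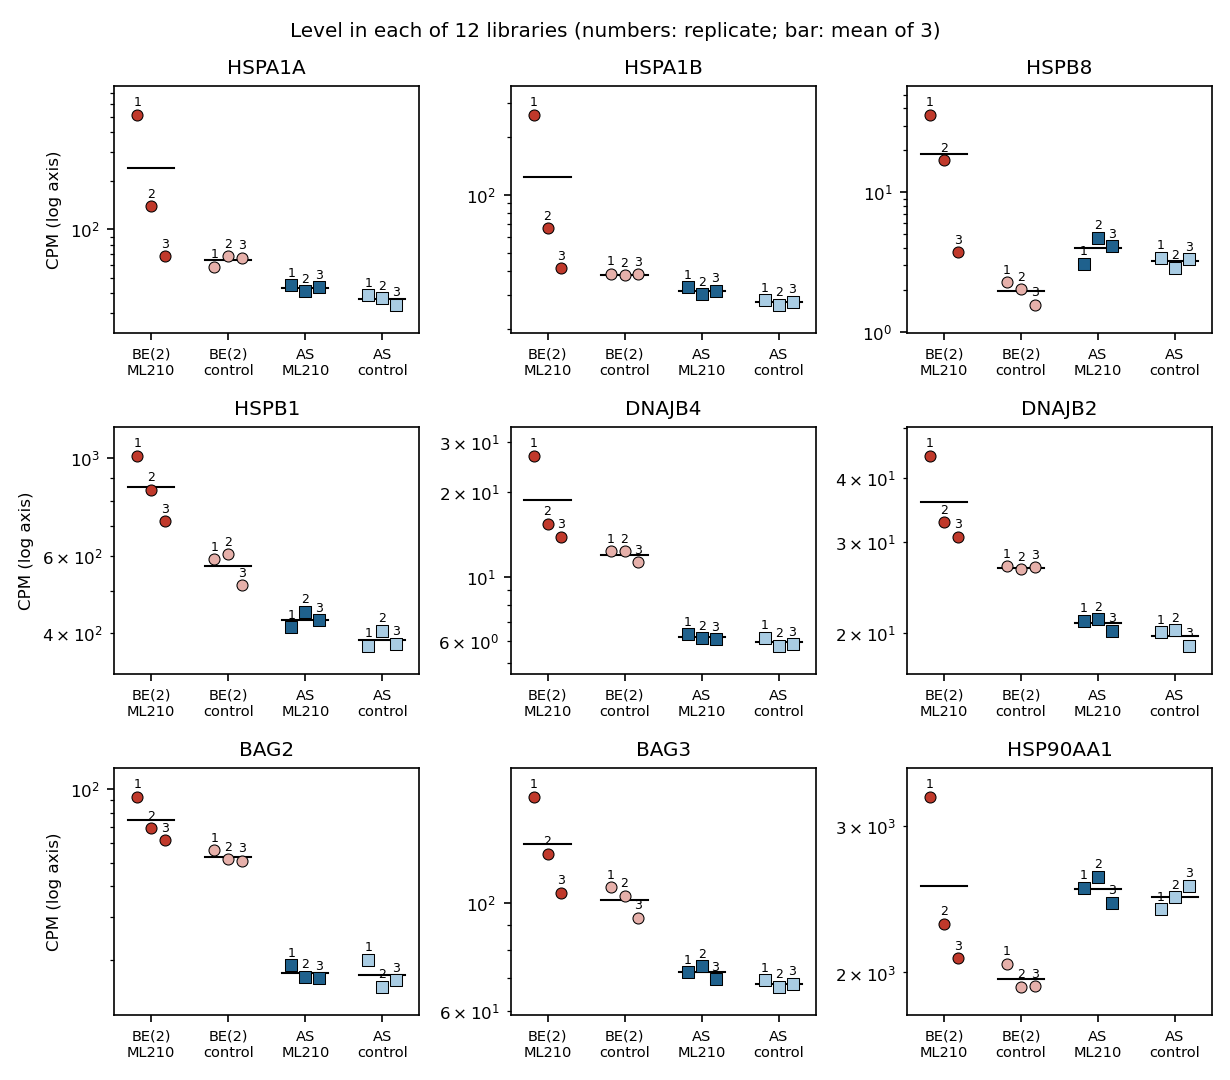
Level of 9 members in each of the 12 libraries, in CPM on log axes, with 3 numbered replicates per group and a bar at their mean (BE(2)-labelled groups as circles, AS-labelled groups as squares). In the BE(2)-labelled ML210 group, replicate 1 is the highest point in all 9 panels and replicate 3 the lowest of the 3, as for HSPA1A at 516, 139 and 67.8 CPM.

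The order of the 3 ML210 libraries was shared by many members. ML210 replicate 1 was the highest of the 6 BE(2)-labelled libraries for 24 of the 41 members (58.5%), against 22% of all tested genes. It was the highest and replicate 3 the lowest of the ML210 libraries for 22 members (53.7%), against 19.7% of all genes. That order was not particular to the BE(2) label, as it held under the AS label for 19 members (46.3%), against 19.3% of all genes. There, ML210 replicate 1 was the highest of the 6 AS-labelled libraries for 11 members (26.8%), against 15.7% of all genes. Within batches, 10 members had a log2 ratio of at least 0.5 over their control in batch 1, where 7.76% of all genes did. In batch 2 there were 3, namely HSPA1A, HSPA1B and HSPB8, against 3.92% of genes, and in batch 3 HSPB8 alone, against 2.12%. All 3 ML210 libraries were above all 3 controls for 10 members and below them for 0, against 9.22% and 8.18% of all genes. CRYAB, which passed the filter through these ML210 libraries, is counted in these 10 and in the 24, the 22 and the 10 of batch 1. The blood marker PTPRC ran the other way, with 162, 191 and 289 CPM in the ML210 libraries, against 278, 263 and 329 CPM in the controls. The sum of 5 blood markers, nearly all of it PTPRC, was 163 to 289 CPM with ML210 and 264 to 330 CPM in the controls. CD3E and HBB had 0 reads, and CD14 and CSF1R were at or below 0.88 CPM in each of these libraries. The sum of 7 fibroblast and mesenchymal markers was 2303 to 2781 CPM with ML210 and 2723 to 3009 CPM in the controls. The part of these marker levels in the chaperone values was not tested.

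**Figure D2:**
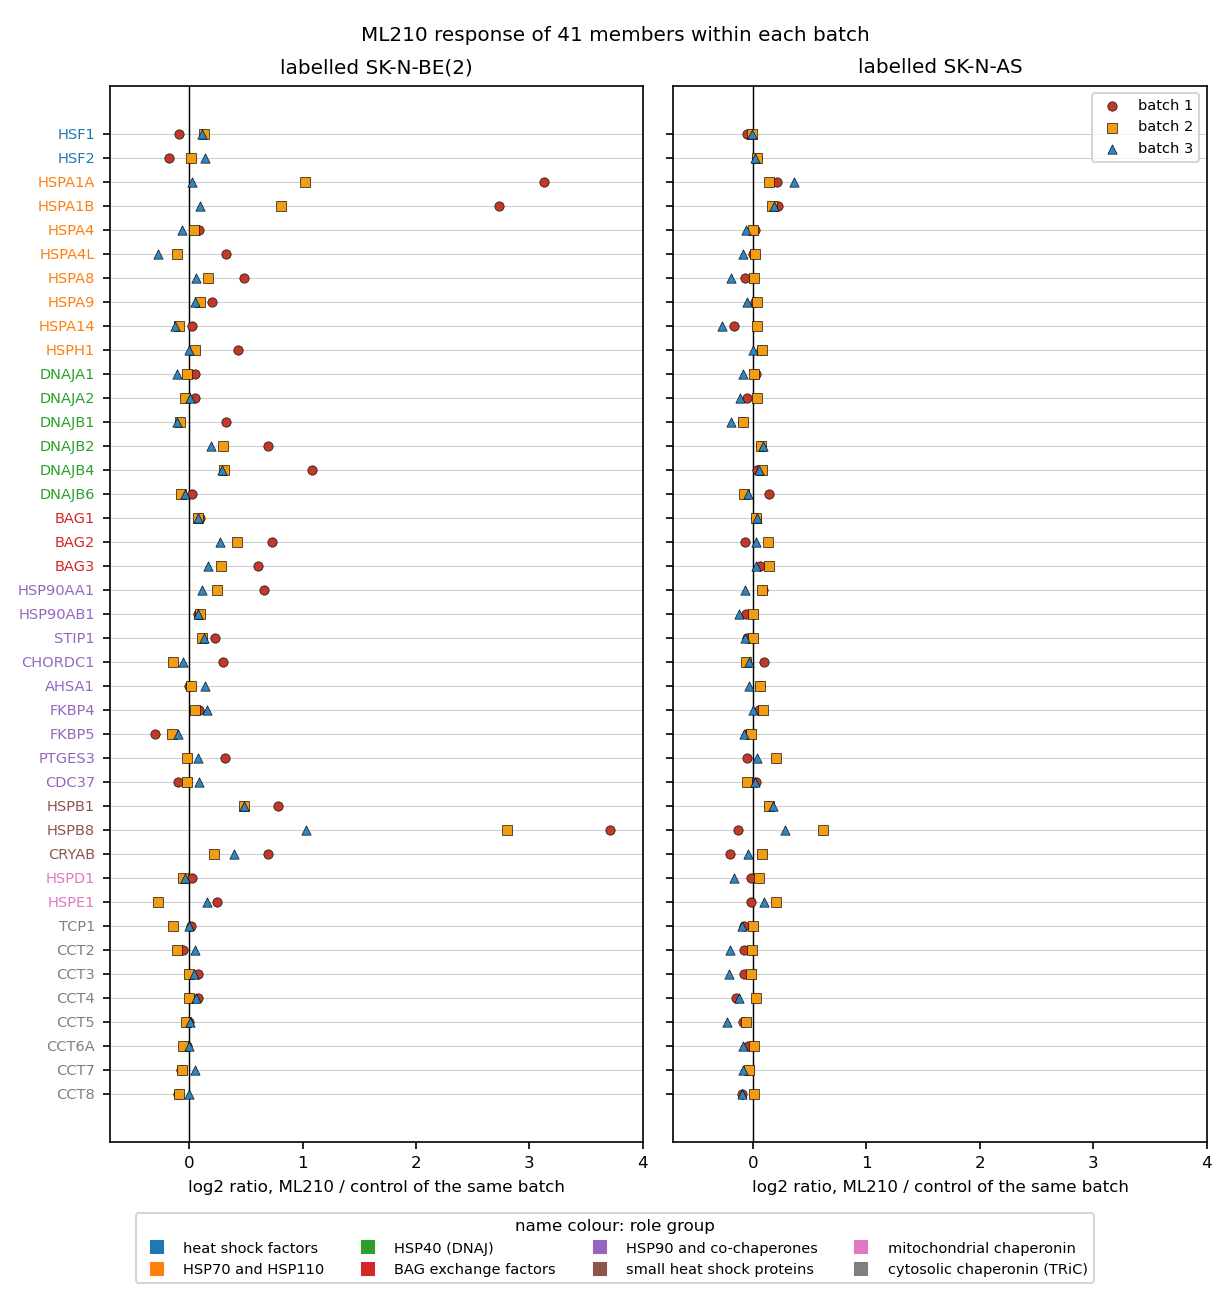
Log2 ratio of each ML210 library over the control of its batch for the 41 members, after adding 0.5 CPM, with BE(2)-labelled pairs left, AS-labelled pairs right, 1 symbol per batch and names coloured by role. Left, batch 1 reaches 3.71 for HSPB8 and 3.13 for HSPA1A while the TRiC subunits stay near 0, and right, the highest point is 0.62 for HSPB8.

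With ML210, the AS-labelled libraries showed no called change in any of the 41 members. By edgeR's quasi-likelihood test 0 were called, where 0.0296% of all genes were, and at an unadjusted p under 0.05, 0 were higher and 1 was lower, where 2.69% and 4.19% of all genes were. By DESeq2's Wald test the count of called members was also 0, where 32 of the 16896 genes it tested were called higher and 15 lower. The median log2 fold change was -0.01 over the members and -0.008 over all genes. Libraries did not overlap for 9 members, 5 above and 4 below, against 6.01% and 8.86% of all genes.

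The factors and the inducible genes had narrow ranges under the AS label. HSF1 had 75.9, 81.1 and 77 CPM with ML210 and 78.4, 81.6 and 77.4 CPM in the controls. HSF2 had 38.1, 37.8 and 37.4 CPM with ML210 and 37.1, 36.8 and 36.9 CPM in the controls. The HSF1 groups overlapped, and those of HSF2 were separated by a gap smaller than 1 CPM.

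HSPA1A had 45, 41.3 and 43.8 CPM with ML210, against 39, 37.4 and 34 CPM in the AS-labelled controls. HSPA1B had 33, 30.4 and 31.8 CPM with ML210 and 28.2, 26.9 and 27.8 CPM in the controls. Both pairs of groups were apart, but the fitted log2 fold changes of 0.24 and 0.20 had 95% intervals of -1.16 to 1.63 and -1.11 to 1.51, in a fit whose spread for these genes includes the BE(2)-labelled libraries. HSPB1 had 413, 448 and 428 CPM with ML210, against 375, 406 and 379 CPM in the controls, also without overlap (log2 fold change 0.15, 95% interval -0.08 to 0.39, adjusted p = 0.821, edgeR). HSPB8 had 3.09, 4.74 and 4.14 CPM with ML210 and 3.42, 2.9 and 3.33 CPM in the controls, with overlap.

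The 4 members with the smallest p under the AS label were 3 TRiC subunits and HSPA14, all lower and none called. CCT5 had 631, 612 and 578 CPM with ML210 and 673, 639 and 677 CPM in the controls (log2 fold change -0.13, SE 0.0534, adjusted p = 0.694, edgeR). CCT3 had 1245, 1222 and 1136 CPM with ML210 and 1320, 1243 and 1316 CPM in the controls (log2 fold change -0.11, adjusted p = 0.75, edgeR). The groups were apart for CCT5 and overlapped narrowly for CCT3. CCT2 had 485, 485 and 467 CPM with ML210 and 512, 488 and 536 CPM in the controls (log2 fold change -0.10). HSPA14, a ribosome-associated HSP70, had 30.6, 30.4 and 30.4 CPM with ML210 and 34.4, 29.5 and 36.7 CPM in the controls (log2 fold change -0.14). CCT2 did not overlap and HSPA14 did. All 8 TRiC subunits had log2 fold changes below 0, from -0.13 to -0.04, with a median of -0.07, where 52% of all genes were below 0. With library totals CCT6A was at 0.01 and CCT7 at 0. Genes of the opposite strand overlap 30.1% of CCT5's exonic bases.

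The most abundant chaperones had overlapping groups under the AS label. HSP90AB1 had 3399, 3526 and 3286 CPM with ML210 and 3551, 3522 and 3568 CPM in the controls. HSPA8 had 4033, 3770 and 3566 CPM with ML210 and 4228, 3742 and 4055 CPM in the controls. HSPD1 had 1679, 1747 and 1658 CPM with ML210 and 1701, 1687 and 1864 CPM in the controls. None of these 3 was called, with adjusted p of 0.906, 0.96 and 0.952 by edgeR.

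Averaged over both line labels with equal weight, HSPB1 was the single member called, and it was higher. Its log2 fold change was 0.37 (SE 0.0722, adjusted p = 0.0273, edgeR), and it was higher in 6 of 6 same-batch pairs. The background of genes called higher was 0.699%, and 0 members were called lower, where 0.532% of genes were. Leaving out any of the 6 AS-labelled libraries, ML210 replicate 2, control replicate 1 or control replicate 3 of the BE(2) label ended the call, with adjusted p from 0.0514 to 0.0833 by edgeR. Without ML210 replicate 3 of the BE(2) label, 4 members were called higher, HSPB1, HSPB8, DNAJB2 and BAG3, and FKBP5 lower, where 2.2% and 2.58% of all genes were. With the replicate block, DNAJB2, BAG2 and BAG3 were called beside HSPB1, at log2 fold changes of 0.24, 0.25 and 0.22 (adjusted p = 0.0448, 0.0263 and 0.0307, edgeR), where 2.68% of all genes were called higher. DESeq2 called 2 higher, HSPB1 and HSPB8, and 0 lower, where 2.21% and 2.38% of the genes it tested were.

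Whether the response differed between the labels was tested directly, as the BE(2)-labelled response minus the AS-labelled one. It was called for 0 of the 41 members by edgeR, where 0.00493% of all genes were called. DESeq2 also called 0, where 25 of the 16896 genes it tested were called higher and 14 lower. At an unadjusted p under 0.05, 5 members had the larger response under the BE(2) label and 0 the smaller, against 4.50% and 2.66% of all genes. These were HSPB8 at 2.96 (95% interval 0.89 to 5.02, adjusted p = 0.563, edgeR), HSPB1 at 0.44, BAG2 at 0.48, DNAJB2 at 0.34 and STIP1 at 0.20 on the log2 scale. The difference for HSPA1A was 1.67, with a 95% interval of -0.29 to 3.63. In all, 35 of the 41 differences were above 0, where 10453 of the 20304 genes tested were. The 35 include CRYAB, which passed the filter through the BE(2)-labelled ML210 libraries. The median difference was 0.07 over the members, against 0.008 over all genes. Without BE(2)-labelled ML210 replicate 3, HSPB8 was called different, at 3.41 (adjusted p = 0.004, edgeR). In that fit 97 of 21046 genes were called higher and 59 lower.

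Without drug, the BE(2)-labelled cells held less mRNA of 7 of 8 TRiC genes, 6 of 9 HSP90 and co-chaperone genes and 4 of 8 HSP70 and HSP110 genes than the AS-labelled cells, and more of HSF1 and of several DNAJ and BAG genes. In this comparison of controls, 8 members were higher under the BE(2) label, 23 were lower and 10 were not called by edgeR's quasi-likelihood test. The background was large, with 33.9% of all genes called higher and 35.2% lower. The median log2 fold change was -0.45 over the members and -0.005 over all genes. Scaling by library totals moved the median of all genes to 0.243 and that of the members to -0.20, and then called 14 members higher and 20 lower, where 42.2% and 27.3% of all genes were. The same control libraries serve as baselines of the ML210 comparisons, so the results are not independent. Sums of marker genes differed between the same controls. For 7 fibroblast and mesenchymal genes they were 2723 to 3009 CPM under the BE(2) label and 172 to 282 CPM under the AS label. For 4 epithelial genes they were 159 to 229 CPM under the BE(2) label and 1.57 to 4.35 CPM under the AS label. EPCAM, 1 of these 4, went the other way near the detection limit, at means of 0.111 CPM under the BE(2) label and 0.22 CPM under the AS label. The sum of 4 endothelial genes was lower under the BE(2) label, at 1.21 to 2.23 CPM against 17.7 to 36.8 CPM under the AS label. Sums of Schwann cell and of sympathetic neuroblastoma markers were also lower under the BE(2) label. The sum of 5 blood markers was 264 to 330 CPM under the BE(2) label and 1.53 to 3.46 CPM under the AS label. Under the BE(2) label it was nearly all PTPRC, at 278, 263 and 329 CPM. CSF1R averaged 0.551 CPM under the BE(2) label and 0.187 CPM under the AS label. CD14 went the other way, at means of 0.336 CPM under the BE(2) label and 1.52 CPM under the AS label. The 13 mitochondrially encoded transcripts summed to 17960 to 20790 CPM under the BE(2) label and 46110 to 58960 CPM under the AS label. The part of these levels in the differences of the members was not tested.

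The heat shock factors moved in opposite directions. HSF1 had 163, 155 and 160.5 CPM in the BE(2)-labelled controls and 78.4, 81.6 and 77.4 CPM in the AS-labelled ones, a log2 fold change of 1.01 (SE 0.0568, adjusted p = 1.78e-09, edgeR). HSF2 had 16.4, 15.6 and 14.9 CPM under the BE(2) label and 37.1, 36.8 and 36.9 CPM under the AS label, a log2 fold change of -1.24 (SE 0.0697, adjusted p = 1.73e-09, edgeR). Neither gene overlapped between the labels.

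Of the 8 HSP70 and HSP110 genes, 4 were lower and 4 were not called. HSPA8 had 1706, 1639 and 1502 CPM in the BE(2)-labelled controls, against 4228, 3742 and 4055 CPM in the AS-labelled ones (log2 fold change -1.31, SE 0.123). HSPA4L, an HSP110 relative, had 14.6, 13.3 and 17.4 CPM under the BE(2) label and 49.2, 49.8 and 50.6 CPM under the AS label (log2 fold change -1.72, SE 0.128). Both genes were clearly separated. HSPA9 fell by 0.81 and HSPA14 by 0.54 on the log2 scale. HSPA1A and HSPA1B had higher levels under the BE(2) label without overlap, as the control values above show, and were not called in the shared fit (log2 fold changes 0.80 and 0.48, adjusted p = 0.264 and 0.479, edgeR). In a fit of the 6 controls alone they were called at 0.83 and 0.51 (adjusted p = 8.4e-06 and 8.74e-05, edgeR), and likewise with the replicate block (adjusted p = 0.000316 and 0.000997, edgeR) and without BE(2)-labelled ML210 replicate 1 (adjusted p = 0.00798 and 0.00457, edgeR).

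In the DNAJ family 3 genes were higher and 2 were lower. DNAJB4 had 12.4, 12.4 and 11.3 CPM under the BE(2) label and 6.15, 5.77 and 5.81 CPM under the AS label (log2 fold change 1.02, SE 0.193). DNAJB2 and DNAJB6, a suppressor of polyglutamine aggregation, were higher by 0.44 and 0.61. DNAJA1 and DNAJA2, farnesylated partners of cytosolic HSP70, fell by 0.51 and 0.57.

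BAG genes split as well. BAG2 had 56.1, 51.5 and 50.8 CPM in the BE(2)-labelled controls and 20, 15.6 and 16.5 CPM in the AS-labelled controls, the largest rise among the members (log2 fold change 1.60, SE 0.14). BAG1 had 79, 81.7 and 87.9 CPM under the BE(2) label and 191, 175 and 172 CPM under the AS label (log2 fold change -1.11, SE 0.0648). BAG3 was higher by 0.57. Each of the 3 genes was without overlap between the labels.

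Among HSP90 and its co-chaperones, 6 of 9 were lower and 1 was higher. CHORDC1, a zinc-binding HSP90 partner, had 25, 24.9 and 23.3 CPM under the BE(2) label and 101, 99 and 99.2 CPM under the AS label (log2 fold change -2.03, SE 0.106). FKBP5 had 57.1, 51.6 and 57 CPM under the BE(2) label and 181, 182 and 184 CPM under the AS label (log2 fold change -1.72, SE 0.0629). With HSPA4L, these were the largest falls of the 41 members. HSP90AB1 had 2752, 2606 and 2525 CPM under the BE(2) label and 3551, 3522 and 3568 CPM under the AS label (log2 fold change -0.43). CDC37, which brings kinases to HSP90, was the one gene of the group that rose, by 0.88. FKBP4 and PTGES3 fell by 0.48 and 0.45, and HSP90AA1 by 0.32. The HSP90AA1 call (adjusted p = 0.0357, edgeR) was lost without any of the 6 control libraries (adjusted p from 0.0511 to 0.12, edgeR), and with library totals it was at -0.08 and PTGES3 at -0.20, neither called (adjusted p = 0.604 and 0.114, edgeR).

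Of the 8 TRiC subunits, 7 were lower under the BE(2) label (6 with library totals), as were both mitochondrial chaperonin genes. TCP1 averaged 215 ± 10.6 CPM in the BE(2)-labelled controls and 565 ± 21.6 CPM in the AS-labelled ones (SD, n = 3 each, log2 fold change -1.40, SE 0.0562). CCT3 had 653, 697 and 652 CPM under the BE(2) label and 1320, 1243 and 1316 CPM under the AS label (log2 fold change -0.95, SE 0.0539). The labels did not overlap for either subunit. CCT2, CCT5, CCT6A and CCT8 fell by between 0.45 and 0.59, and CCT7 was at 0.07 and not called. CCT4 fell by 0.15, a call that was lost without any of the 6 BE(2)-labelled libraries or without AS-labelled control replicate 1 or 3 (adjusted p from 0.0528 to 0.24, edgeR). It was also lost with DESeq2 size factors, without the filter and in a fit of the 6 controls (adjusted p = 0.0678, 0.139 and 0.114, edgeR), with the replicate block (adjusted p = 0.15, edgeR) and by DESeq2's Wald test (adjusted p = 0.0996). With library totals it was at 0.09 and not called (adjusted p = 0.119, edgeR), and CCT7 was called higher at 0.32. TRiC is assembled from 1 copy of each subunit per ring, and the 8 differences ranged from -1.4 to 0.07. HSPD1 had 904, 846 and 846 CPM under the BE(2) label and 1701, 1687 and 1864 CPM under the AS label (log2 fold change -1.02, SE 0.0628), and HSPE1, which is transcribed from the same bidirectional region, fell by 0.82. HSPB1 was higher by 0.56 among the small heat shock proteins (adjusted p = 0.000271, edgeR). HSPB8 had less than its AS-labelled counterpart without overlap, with 2.29, 2.03 and 1.58 CPM under the BE(2) label and 3.42, 2.9 and 3.33 CPM under the AS label. It was not called in the shared fit (log2 fold change -0.72, adjusted p = 0.347, edgeR). HSPB8 was called in a fit of the controls alone (-0.68, adjusted p = 0.0157, edgeR) and with the replicate block (-0.69, adjusted p = 0.0343, edgeR). It was also called without BE(2)-labelled ML210 replicate 3 (-0.69, adjusted p = 0.0386, edgeR).

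**Figure D3:**
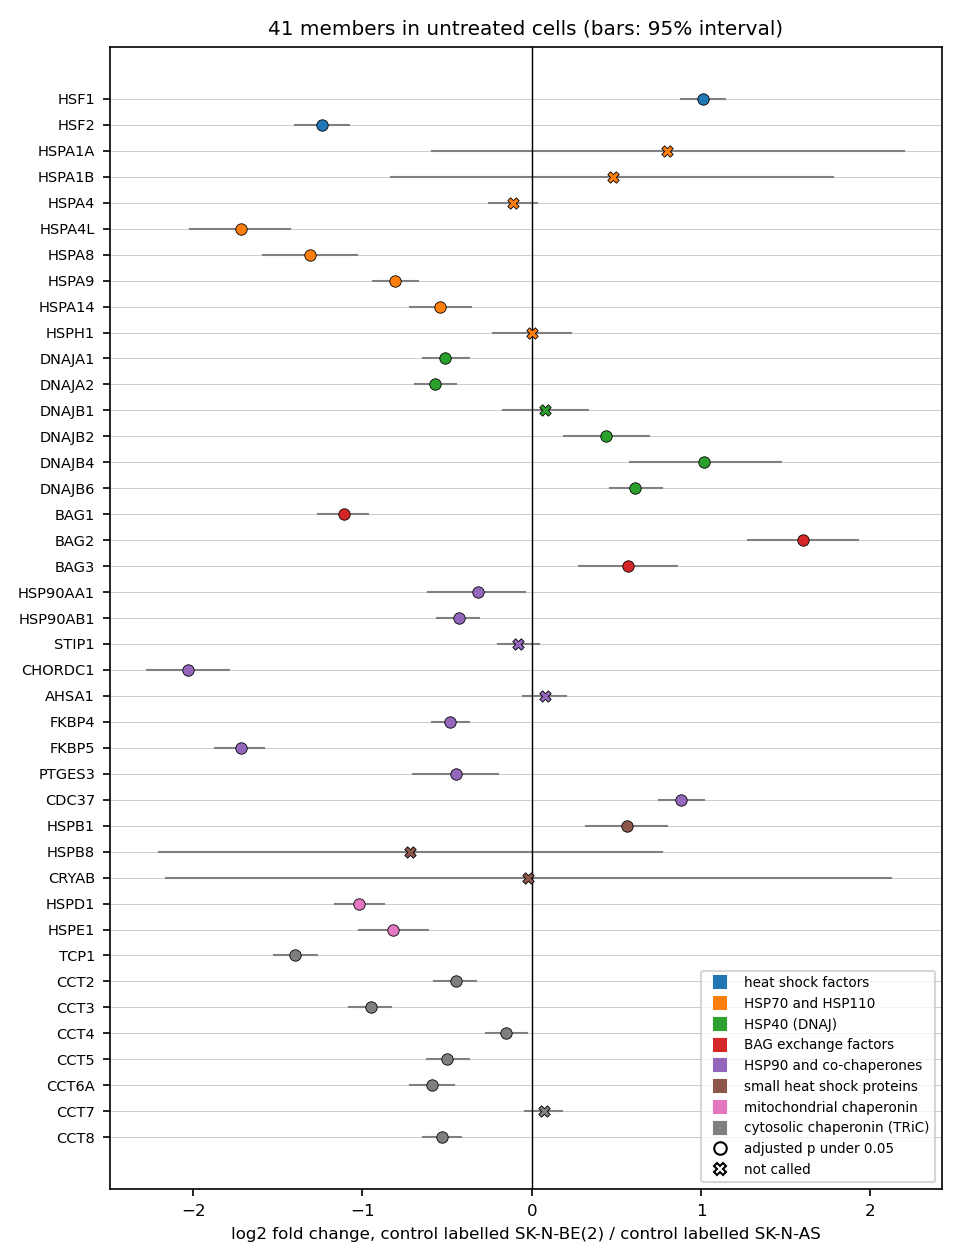
Log2 fold change of the 41 members between the controls, BE(2)-labelled over AS-labelled, with 95% intervals, coloured by role (circles, adjusted p under 0.05; crosses, not called). Of the 8 TRiC subunits, 7 lie left of 0 as called genes, while BAG2 lies farthest right at 1.60 and CHORDC1 farthest left at -2.03. The CCT4 call held in 5 of 19 alternative fits.

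Per kilobase of exon, the level of the members spanned several orders of magnitude, down to fractions of 1 CPM per kilobase for CRYAB. HSP90AB1 was the highest, at 882 CPM per kilobase in the BE(2)-labelled controls and 1190 CPM per kilobase in the AS-labelled ones. HSPA8 stood at 333 CPM per kilobase in the BE(2)-labelled controls, below HSP90AA1 at 375 and HSPB1 at 349 CPM per kilobase, and at 827 CPM per kilobase in the AS-labelled controls, where it ranked next to HSP90AB1. Among DNAJ genes DNAJA1 led, with 406, 381 and 352 CPM with ML210 and 391.9, 385.6 and 379.9 CPM in the controls of the BE(2) label.

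Under the AS label DNAJA1 had 572, 538 and 514 CPM with ML210 and 560, 536 and 548 CPM in the controls, so its treated and untreated libraries overlapped under both labels. Of the BAG genes, BAG3 led in the BE(2)-labelled controls at 36.9 CPM per kilobase, and BAG1 in the AS-labelled controls at 25.4, next to BAG3 at 24.9 CPM per kilobase. Under the AS label BAG1 had 196, 179 and 177 CPM with ML210 and 191, 175 and 172 CPM in the controls, with overlap. BAG3 had 72.1, 74.1 and 69.8 CPM with ML210 and 69.3, 67.3 and 68.3 CPM in the controls there, just without overlap. The TRiC subunits lay within a narrower range than the other large groups, from 43.6 for TCP1 to 166 for CCT3 in the BE(2)-labelled controls and from 104 for CCT4 to 322 for CCT3 in the AS-labelled ones, in CPM per kilobase. HSPD1 exceeded its partner HSPE1 under both labels, at 204 against 20.1 and 412 against 35.5 CPM per kilobase, though 23.9% of HSPE1's exonic bases are shared with other genes. CRYAB was the lowest member, at or below 0.471 CPM in every library.

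**Figure D4:**
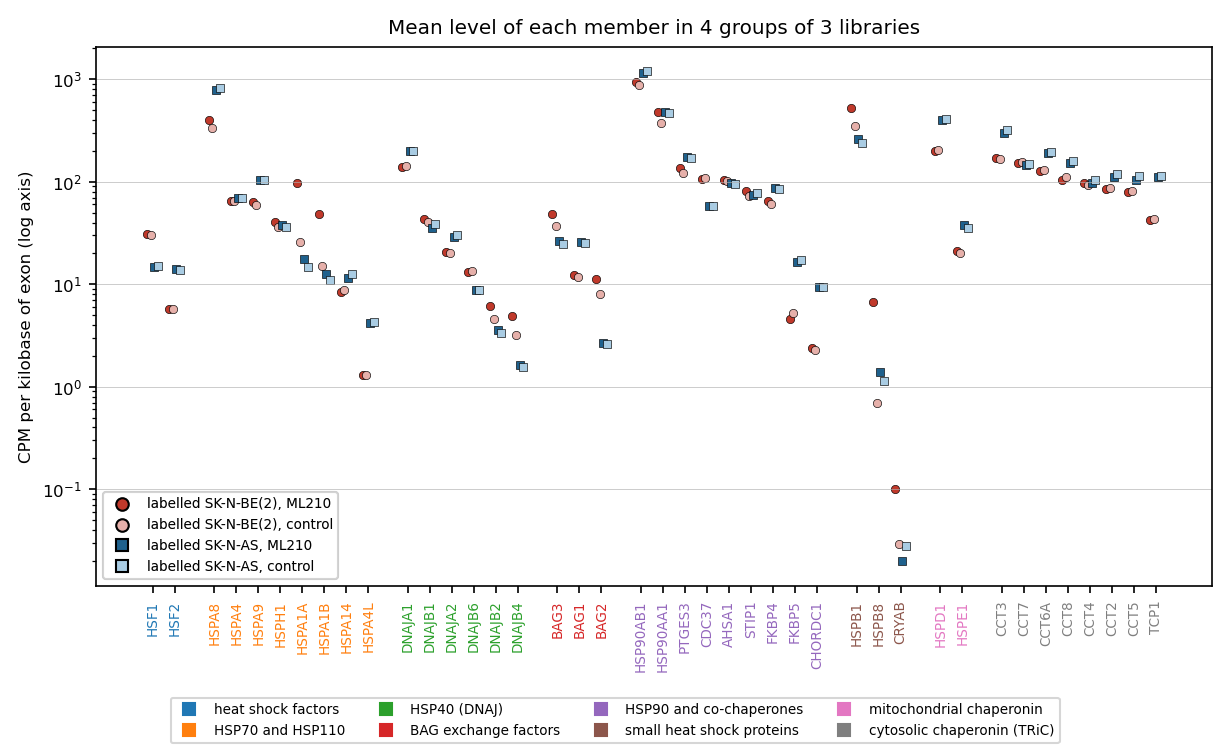
Mean level of each member in the 4 groups of 3 libraries, in CPM per kilobase of exon on a log axis, grouped and coloured by role (BE(2)-labelled as circles left, AS-labelled as squares right). HSP90AB1 is the highest at 882 in the BE(2)-labelled controls and 1190 in the AS-labelled ones, and CRYAB is the lowest.

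Beyond the 41 members, 63 other chaperone and proteostasis genes were listed, of which 59 were tested. With ML210 under the BE(2) label 2 of the 59 were called higher and 0 lower, where 0.818% and 0.557% of all genes were. Under the AS label 0 were called by edgeR, where 0.0296% of all genes were. At an unadjusted p under 0.05, 0 were higher and 7 lower there, where 2.69% and 4.19% of all genes were. SQSTM1, the autophagy receptor p62, had 569.5, 487 and 283 CPM with ML210 and 184, 219 and 171 CPM in the controls of the BE(2) label (log2 fold change 1.22, SE 0.209, adjusted p = 0.0268, edgeR). DNAJC6, auxilin, which uncoats clathrin vesicles with HSPA8, had 39.6, 38.2 and 30.1 CPM with ML210 and 28.2, 26.6 and 27.1 CPM in the controls (log2 fold change 0.40, SE 0.0902, adjusted p = 0.0485, edgeR). Neither overlapped its controls, and replicate 3 was again the lowest ML210 library of each.

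In the mean response of both labels SQSTM1 was called higher (0.82, adjusted p = 0.0338, edgeR, higher in 6 of 6 pairs), with 169, 163 and 159 CPM with ML210 and 126, 118 and 122 CPM in the AS-labelled controls. DNAJC9, a histone chaperone of the DNAJ family, was called lower (-0.24, adjusted p = 0.0388, edgeR), and it was higher in 0 of 6 pairs. The difference of the responses was called for 0 of the 59 by edgeR, where 0.00493% of all genes were. At an unadjusted p under 0.05, 9 were higher and 0 lower in the difference, where 4.50% and 2.66% of all genes were.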

How the data were processed

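The deposited values were raw counts per gene from 12 libraries, made by the authors with FastQC, Trimmomatic 1.4, HISAT2 2.2.1 and featureCounts 2.0.5 on GRCh38 (hg38), per the submitters' processing notes. Stranded mRNA libraries were made, per the labels' protocols. No source used here states the strand setting or the treatment of multi-mapping reads, so genes with near-identical copies or antisense partners are uncertain. Members were matched to Ensembl identifiers by symbol.

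Counts were fitted in edgeR 4.0.16 (R 4.3.3) with TMM scaling, filterByExpr by group and 1 coefficient per group over all 12 libraries (8 residual degrees of freedom). Contrasts used the robust quasi-likelihood test, two-sided, with Benjamini-Hochberg adjustment over 20304 genes, called under 0.05. CPM used TMM-scaled totals, and CPM per kilobase used GENCODE 29 exon lengths. DESeq2 1.42.0 was an alternative. The procedure was tested on simulated data.

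Members, lists and tests were chosen with earlier results of these data known. Values in every library were given for the heat shock factors, HSPA1A, HSPA1B, called members, the 4 smallest p where none was called, the 12 largest called differences between controls and the most abundant member per role group. Other members with library values were chosen after their values were seen. The blood marker sum leaves out 1 listed gene, which is not reported here. The replicate number equals the batch label, so it pairs the libraries. Deviations from group means of same-batch libraries correlated at 0.096, 0.12 and 0.169 (BE(2) label) and 0.357, 0.068 and 0.121 (AS label) between treatments, and at -0.082, -0.003 and -0.027 between controls.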

Additional observations from a re-analysis of the deposited data

How the results depend on the processing

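Every alternative kept the direction of every member called in an ML210 comparison. Between the controls 4 log2 differences changed sign with library totals: HSPA4 (0.14), STIP1 (0.17), CCT4 (0.09) and CRYAB (0.21). With library totals 2 members were called higher with ML210 under the BE(2) label, where 206 of 20304 genes were. Between the controls that scaling called 14 members higher, where 42.2% of all genes were. Without a filter 2 members were higher under the BE(2) label, where 272 of 36967 genes were. In that setting 33, 556, 531 and 24 genes of all were called under the AS label, the BE(2) label, in the mean and in the difference. With the groups compared alone, 0 members were higher under the BE(2) label, and 21 (AS) and 51 (BE(2)) of all genes were called. The mean and the difference need all 4 groups and were not run so. With the replicate block 7 members were higher under the BE(2) label and 4 in the mean, and 38 (AS), 1386 (BE(2)), 1240 (mean) and 85 (difference) of all genes were called. DESeq2's Wald test called 6 and 2 members, and 47, 753, 775 and 39 of all genes in the same order. Without 1 library at a time, members called under the BE(2) label numbered 0 to 9 higher and 0 to 1 lower, in the mean 0 to 4 higher and 0 to 1 lower, and in the difference 0 to 1 higher. The highest counts were those without BE(2)-labelled ML210 replicate 3. All genes called numbered 3 to 13 (AS), 48 to 1242 (BE(2)), 63 to 1006 (mean) and 1 to 156 (difference). Members called between the controls numbered 8 to 10 higher and 21 to 23 lower, where 13401 to 14241 of all genes were called in either direction. The block changed no other call than those given with the results, beside CCT4 (lost, adjusted p = 0.15, edgeR) and HSPB8 (lower, -0.69, adjusted p = 0.0343, edgeR) between the controls. The cause of these changes was not tested. Precision rests on 3 libraries per group, and CRYAB had few reads, 60 in the BE(2)-labelled ML210 libraries and 18 in their controls.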

Other observations

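Of the 59 other chaperone and proteostasis genes tested, 22 were higher and 25 lower in the BE(2)-labelled controls than in the AS-labelled ones, and 12 were not called, where 33.9% of all tested genes were called higher and 35.2% lower. Small heat shock proteins and a collagen chaperone led the higher side. HSPB6 had 20, 17.4 and 12 CPM in the BE(2)-labelled controls and 0.377, 0.705 and 0.458 CPM in the AS-labelled ones (log2 fold change 5.01, SE 0.405). HSPB7, known from muscle, was higher by 1.83. HSPB3, also known from muscle, was called higher near the detection limit, with 53 reads in the BE(2)-labelled controls and 2 in the AS-labelled ones. At or below 0.0881 CPM in every AS-labelled library, it passed the filter through the BE(2)-labelled ones, so this call is not independent of the filter. SERPINH1, which folds collagen in the endoplasmic reticulum, had 519.6, 520.1 and 449 CPM under the BE(2) label and 96.4, 88.2 and 78.6 CPM under the AS label. HSPA2, an HSP70 best known from testis, had 56.9, 56 and 49.2 CPM under the BE(2) label and 12.7, 11.5 and 12 CPM under the AS label. IFT25 (HSPB11), part of a ciliary transport complex, and HSPA12B, known from endothelium, were higher by 1.80 and 1.78. CLPB, a mitochondrial disaggregase, was the largest fall, with 30.7, 31.5 and 32.9 CPM under the BE(2) label and 165, 168 and 147 CPM under the AS label (log2 fold change -2.33). The part of the marker levels given with the controls in these differences was not tested.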
